A study of Mus musculus with 32 samples.

Results

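Glycolysis, the export of its end product lactate and the entry of pyruvate into mitochondria were followed through 40 named genes. The members were chosen by name for their place in this pathway, with results of these data already known, so all Bch and level values below are a description and support nothing by themselves. The counts table lists 38 of the 40 among 23517 genes. Aldoa and Eno2 are not analysed here. A filter on low counts kept 32 of the 38 in each comparison. The 6 members under it were Slc2a3 with 5 UMIs (unique molecular identifiers, each a counted RNA molecule) over all libraries, Hkdc1 with 51, Pfkm with 65, Pfkfb2 with 28, Pfkfb4 with 49 and Pdk4 with 4.

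The cells were Lgr5-EGFP+ cells from proximal colon organoids (colonoids) of Lgr5-EGFP-IRES-CreERT2 mice, in which EGFP reports the stem cell gene Lgr5. Colonoids of 8 mice were left untreated or given 250 nM bethanechol (Bch), a muscarinic acetylcholine receptor agonist, for 4 days, so the 2 cultures of a mouse form a pair. Each culture gave 2 technical replicates, TR1 and TR2, which were summed to 16 sums of 557512 to 4050342 UMIs. Mice BR1 to BR4 are labelled male, with sorted Lgr5+ cells as source and the RNeasy Plus Micro kit. Mice BR7 to BR10 carry no sex label, have colonic organoids as source and the RNeasy Mini kit. The series counts 4 female and 4 male mice. The set of a mouse therefore cannot be told apart from sex, source or kit. Most samples held 3000 sorted cells, and untreated BR1 held 13114.

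Glucose enters through Slc2a transporters, is trapped by hexokinases, is split into trioses and leaves glycolysis as pyruvate. Lactate dehydrogenase turns pyruvate into lactate, which Slc16a transporters carry across the membrane with the chaperone Bsg. Alternatively the mitochondrial pyruvate carrier imports pyruvate for pyruvate dehydrogenase, which Pdk kinases switch off. In intestinal crypts, stem and progenitor cells are known for a balance between glycolysis and mitochondrial pyruvate use.

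As a whole the libraries carried the marker profile of colon epithelium. The 7 epithelial markers summed to 8354 to 10845 CPM (UMI counts scaled to library size by TMM normalization) in every sum, the 10 stem cell markers to 733 to 1140 CPM, and the 6 listed non-epithelial markers to 1.21 to 11.5 CPM. The other 4 of the 10 non-epithelial markers, Col3a1, Cd3e, Des and Kdr, have no row. Markers of differentiated cells were present too. The 10 goblet cell markers summed to 3811 to 15206 CPM, the 13 colonocyte markers to 831 to 2184 CPM and the 10 enteroendocrine markers to 305 to 1150 CPM. Lgr5 itself stood between 12.4 and 38.6 CPM, higher with Bch in all 4 of BR7 to BR10 and lower in BR1, BR2 and BR3, with an interaction log2 fold change of 1.15 (edgeR adjusted p = 1.00). Its part in the results below was not tested. The X-linked RNA Xist stood at 43.8 to 161 CPM in BR7 to BR10 and at 11.9 to 24.2 CPM in BR1 to BR4. In pools of RNA, fewer cells of a type and less RNA per cell cannot be told apart. A count of 0 allows a level of up to 3 UMIs, which is 0.703 CPM in the deepest sum and 5.24 CPM in the shallowest, for counting error only.

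Ldha and Bsg, among the lactate genes, were the most abundant members. Slc16a3, Slc16a1 and Ldhb were far lower, at 33.1, 21.7 and 6.53 CPM untreated. Averaged over the 8 untreated sums, Ldha, the lactate dehydrogenase subunit that favours lactate formation, stood at 2582 CPM, rank 32 of all genes. Bsg followed at 2387 CPM and rank 37. Tpi1, which interconverts the trioses, had 829 CPM, Pkm, the last enzyme of glycolysis, 799 CPM, and Eno1, the main enolase, 560 CPM. These CPM levels count each molecule once whatever the gene's length. The 38 genes took between 0.673% and 1.43% of all UMIs of a sum, and Ldha and Bsg together 0.335% to 0.722%. The transporter Slc2a1 was far lower at 20.7 CPM and rank 5009, and Slc2a3 and Pdk4 were near 0.

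**Figure D1:**
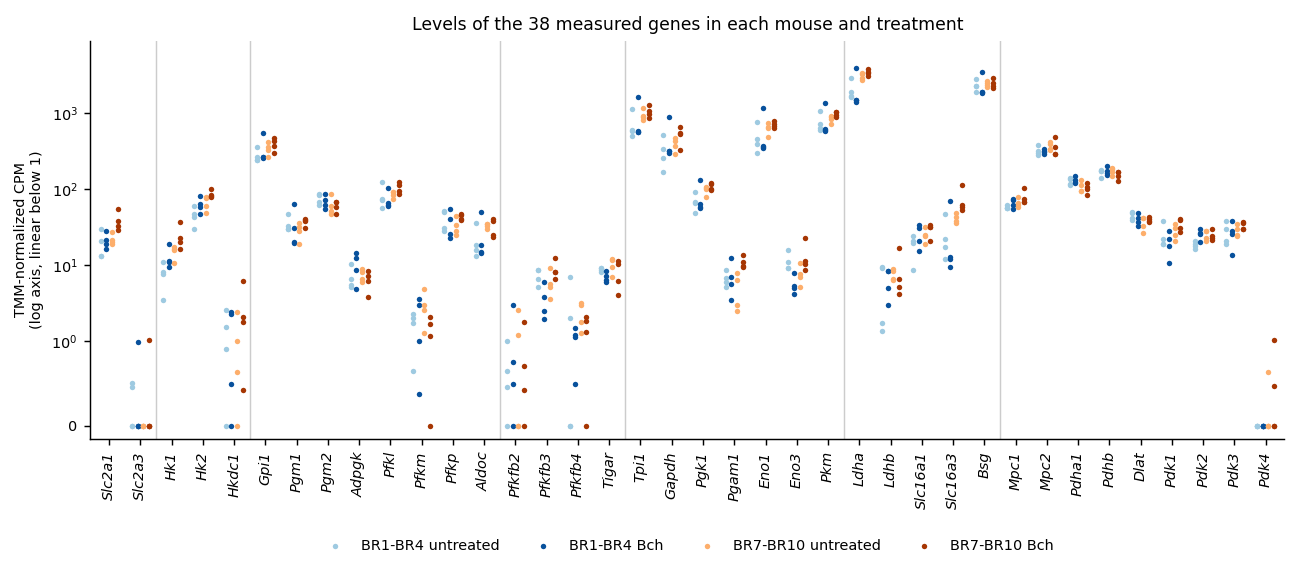
TMM-normalized CPM (log axis, linear below 1) of the 38 measured genes, ordered by pathway step with grey lines between steps, each point being 1 mouse in 1 treatment. Ldha and Bsg are highest, from 1424 CPM upward, and Slc2a3 and Pdk4 are near 0.

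The promoters of 38 of the 40 members, all but Bsg and Slc2a3, were read from RefSeq (GRCm38.p6), each 250 bases before to 50 bases after an annotated start. They were searched on both strands for the core of the hypoxia response element, ACGTG or GCGTG, and for the E-box CACGTG, which contains ACGTG. The hypoxia core occurred in at least 1 promoter of 33 members and in 46.7% of all 27025 genes with a promoter. Among genes that passed the filter over all 16 sums, 70.2% held it, beside 27 of 31 members. The core occurred at least 2 times in 21 of these 31, beside 40.8% of such genes. The E-box was in 6 of 38 members, Ldha, Pdk2, Pfkfb2, Pfkfb3, Pfkm and Slc16a1, and in 8.09% of all genes. Among genes that passed the filter it was in 12.5%, beside 4 of 31 members (12.9%). Dlat, Eno2, Gpi1, Tigar and Tpi1 held no hypoxia core in these windows.

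Stretches just before a RefSeq start of 5 members are shown as examples, picked with the values of these genes known. Slc2a1, Slc16a3, Hk2 and Pgam1 are 4 of the 11 members that were higher with Bch in all 4 mice of BR7 to BR10, and Ldha is the most abundant member. Of the other 7, Gpi1 held no hypoxia core in its promoter window, and Eno3, Hk1, Pdk1, Pdk3, Pfkl and Pfkp held 1 to 5. Capitals mark ACGTG or GCGTG or their reverse complements, and CACGTG is an E-box. The stretches lie at chr4:119108684-119108713 (plus strand) for Slc2a1, chr11:120949034-120949063 (plus) for Slc16a3, chr6:82774455-82774604 (minus) for Hk2, chr19:41911721-41911870 (plus) for Pgam1 and chr7:46845654-46845803 (plus) for Ldha, in GRCm38.p6. Other annotated transcripts start further upstream: the Slc16a3 stretch lies inside the gene and overlaps an exon of another transcript, the Slc2a1 stretch overlaps the start of an annotated exon, and the Ldha stretch lies inside the gene, outside annotated exons.
Slc2a1: CACGCctctcagagtcccgccccggACGTG
Slc16a3: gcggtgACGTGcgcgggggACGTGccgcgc
Hk2: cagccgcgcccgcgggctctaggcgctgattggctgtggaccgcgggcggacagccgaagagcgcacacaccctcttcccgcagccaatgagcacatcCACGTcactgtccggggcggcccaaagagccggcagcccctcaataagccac
Pgam1: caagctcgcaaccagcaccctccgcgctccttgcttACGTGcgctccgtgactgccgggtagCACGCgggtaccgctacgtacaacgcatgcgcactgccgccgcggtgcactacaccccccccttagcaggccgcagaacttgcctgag
Ldha: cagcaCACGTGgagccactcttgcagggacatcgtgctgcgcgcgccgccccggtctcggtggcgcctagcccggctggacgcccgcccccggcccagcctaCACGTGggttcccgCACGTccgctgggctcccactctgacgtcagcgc

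Slc16a3 and Slc2a1 each hold 2 matches in the stretch shown, Pgam1 holds 2, Hk2 holds 1, and Ldha holds 5 when both strands of an E-box are counted. Ldha has another RefSeq start, and the 150 bases before it (chr7:46846932-46847081, plus strand) hold 1 match and no E-box. A match is a run of letters, and nothing about binding was measured.

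Within families of related enzymes and transporters, 1 gene usually held most UMIs. Over all sums Ldha held 99.7% of the Ldha and Ldhb UMIs, Slc2a1 99.4% of Slc2a1 and Slc2a3, Eno1 98.5% of Eno1 and Eno3, and Mpc2 83.3% of the pyruvate carrier pair. Among hexokinases, which phosphorylate glucose, Hk2 held 80.5%, Hk1 17.7% and Hkdc1 1.84%. Among phosphofructokinases, the committed step, liver-type Pfkl held 68.7%, platelet-type Pfkp 29.8% and muscle-type Pfkm 1.56%. The leading gene of each of these families was the same in all 16 sums. Of the Pdk kinases, Pdk3 held 36.4%, Pdk1 34.3%, Pdk2 29.2% and Pdk4 0.149%, and their order differed between sums.

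Which lactate transporter led also differed between mice. Slc16a3 held 60.3% to 65.03% of the Slc16a1 and Slc16a3 UMIs in the untreated sums of BR7 to BR10. In the untreated sums of BR1, BR2, BR3 and BR4 its share was 66.0%, 53.1%, 58.3% and 45.3%. With Bch the share was 67.8%, 30.9%, 43.6% and 29.2% in the same 4 mice, and 84.4%, 60.8%, 64.7% and 65.9% in BR7, BR8, BR9 and BR10. It was thus lower with Bch in BR2, BR3 and BR4 and above 60% in every sum of BR7 to BR10. These shares rest on 12 to 375 UMIs a sum and were not tested.

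**Figure D2:**
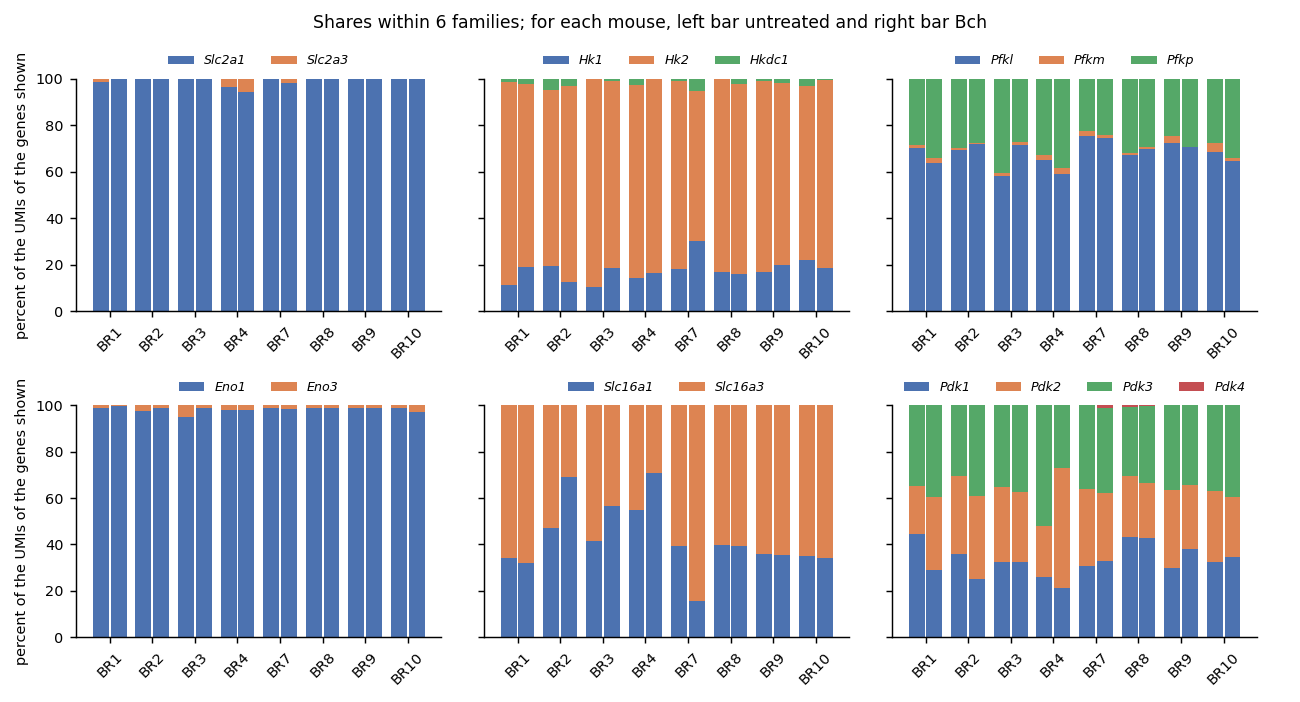
Percent of a family's UMIs held by each member, for 6 families (y axis 0 to 100%), with 2 bars for each of the 8 mice, untreated left and Bch right. Slc2a1, Hk2, Pfkl and Eno1 lead in every sum, while Slc16a1 leads over Slc16a3 in both sums of BR4 and in the Bch sums of BR2 and BR3.

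Bch against untreated was compared within mice, separately in each set, with edgeR's quasi-likelihood test over all genes and Benjamini-Hochberg adjustment. In BR7 to BR10, 0 of 9515 genes passed an adjusted p of 0.05 (0% called), and so 0 of the 32 members. At an unadjusted p under 0.05 there were 360 genes, and DESeq2 also called 0. By that looser rule 8 members were higher with Bch (Eno3, Gapdh, Hk1, Hk2, Pfkp, Pgam1, Slc16a3 and Slc2a1), where 2.48% of all genes were, and 0 were lower, where 1.30% of all genes were. The count of 8 was 4 without BR7, with DESeq2 and in thinned counts (each sum drawn down to the UMIs of the shallowest), and 3 in TR1 alone. Only 25 members passed the filter in thinned counts and 27 in TR1 alone, where Eno3 and Pgam1 were under it. The count was 6 without BR9, 9 without BR8 or with all 16 sums in one fit, and 10 in TR2 alone. Of the 32 members, 24 had a fitted log2 fold change above 0, beside 49.5% of all genes, and the median was 0.21 beside -0.0022, and 0.13 without BR9. In all 4 mice, 11 members were higher with Bch (5.78% of all genes) and 1, Pdhb, was lower (5.61%). In the same fit the goblet cell markers Fcgbp and Muc2 had log2 fold changes of 0.77 (SE 0.19) and 0.45 (SE 0.16). The other tested goblet markers were above 0 too, except Clca1 (-0.063). The summed goblet markers were higher with Bch in BR7 and BR10 and lower in BR8 and BR9. Their part in the result was not tested.

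In BR1 to BR4, 2 of 9509 genes passed (0.0210%), neither of them a member. At an unadjusted p under 0.05, 4 members were higher with Bch (Gapdh, Gpi1, Hk2 and Pdk2; 4.46% of all genes) and 2 were lower (Eno3 and Pfkfb3; 3.26%). The 4 were 2 without BR1, with DESeq2 or without the mouse as block, and 6 without BR2. The 2 were 0 without BR3, with DESeq2, in TR1 alone, in TR2 alone and in thinned counts, and 1 without BR2 or BR4. TR1 alone and TR2 alone kept 26 members each and thinned counts 25. Eno3 was under the filter in TR1 alone and in TR2 alone, so it was not tested there. Gpi1, Hk2, Pdk2 and Slc16a1 were higher in all 4 mice (8.19%), and Eno3 and Pfkfb3 were lower in all 4 (6.86%). In the same 4 mice, sums of the 10 goblet cell markers were lower with Bch each time, from 4951 to 7554 CPM untreated and from 4527 to 6003 CPM with Bch. Those of the 10 dissociation genes were also lower each time (1017 to 1315 and 969 to 1101 CPM), as were the 10 cycling markers (980.03 to 1264 and 911 to 1233 CPM) and the 10 tuft cell markers (7.30 to 15.7 and 4.21 to 10.4 CPM), the last also in all 4 of BR7 to BR10. The ranges of the 2 treatments overlapped for each list, and their part in the results was not tested. Gene by gene the goblet markers were mixed. Spink4 had a log2 fold change of -0.38 (SE 0.094), and Reg4, Agr2, Atoh1 and Fcgbp were also below 0. Muc2, Spdef, Zg16 and Tff3 were above 0, at 0.21, 0.33, 0.20 and 0.010. The members split evenly, with 17 of 32 above 0, beside 50.3% of all genes, and a median log2 fold change of 0.058 beside 0.0012. Without BR1 the count above 0 was 14 and the median -0.091, without BR2 the count was 22 of 31, and the median was 0.11 without BR4 and -0.0043 in thinned counts.

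The difference between the sets was tested as an interaction over all 16 sums. Of 10280 genes, 0 passed in edgeR's quasi-likelihood test (0% called), with 451 at an unadjusted p under 0.05 and 0 called by DESeq2. Eno3, Pfkfb3, Slc16a3, Pdk1 and Pfkl had an unadjusted p under 0.05 toward a higher value in BR7 to BR10 (2.41% of all genes), and 0 members had one in the other direction (1.97%). The count of 5 was 3 without BR2, without BR7, without BR9, with DESeq2 or without the mouse as block, 2 in TR1 alone and 1 in thinned counts. TR1 alone kept 29 members and thinned counts 25. The count was 6 without BR1 and 7 without BR10. The sets were thus not shown to differ for any member.

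**Figure D3:**
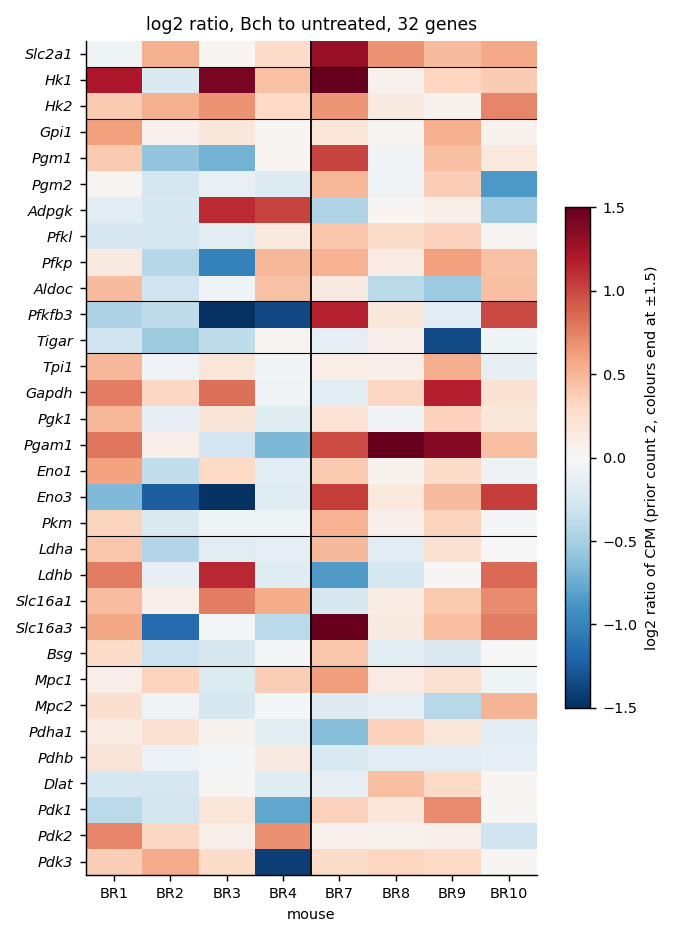
log2 ratio of CPM, Bch to untreated, in each of the 8 mice (columns) for the 32 members that passed the filter (rows, by pathway step). Red is higher and blue lower with Bch, and colours end at ±1.5. Eno3 is blue in BR1 to BR4 and red in BR7 to BR10.

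Individual mice differed. Of the 32 members, 23, 23, 26 and 21 had a log2 ratio above 0 in BR7, BR8, BR9 and BR10, and 24, 10, 16 and 14 in BR1, BR2, BR3 and BR4, where 49.2% to 51.9% of all genes had one in each mouse. The count of BR1 thus lay within the range of BR7 to BR10, and those of BR2, BR3 and BR4 lay below it.

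Glucose uptake came first. Slc2a1 (chromosome 4, 119108711 to 119137983, plus strand, GRCm38), the basal glucose transporter, stood untreated and with Bch at 21.8 and 55.4 CPM in BR7, 20.4 and 33.0 in BR8, 27.4 and 38.5 in BR9, and 19.4 and 29.1 in BR10. Every Bch value of this set lay above every untreated one. The fitted log2 fold change was 0.76 (SE 0.21, edgeR adjusted p = 0.99). How many of all genes had their treatments separated in this way was not counted, which also holds for Pgam1, Slc16a3 and Eno3 below. In BR1 to BR4 the pairs were 29.7 and 28.3, 13.1 and 19.3, 21.0 and 21.5, and 13.2 and 16.3 CPM, and the groups overlapped. The log2 fold change there was 0.19 (SE 0.24), with 0.32 without BR1, 0.078 without BR2 and -0.065 in thinned counts.

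Of the 3 hexokinases Hk1 and Hk2 were tested, and neither passed the threshold in a set. Hk2, the insulin- and hypoxia-responsive isoform, had untreated and Bch values of 49.3 and 78.5, 77.6 and 85.0, 79.6 and 82.3, and 59.9 and 100.3 CPM in BR7 to BR10. In BR1 to BR4 they were 61.1 and 80.6, 43.2 and 63.2, 29.7 and 48.0, and 47.2 and 58.4 CPM. All 8 mice had the higher value with Bch, although the groups overlapped in both sets. The log2 fold change was 0.39 (SE 0.16, edgeR adjusted p = 1.00) in BR7 to BR10 and 0.45 (SE 0.16, edgeR adjusted p = 0.36) in BR1 to BR4. Hk1, the housekeeping isoform, ranged from 3.49 to 17.5 CPM untreated and from 9.45 to 36.6 CPM with Bch, and was higher with Bch in 7 of the 8 mice, BR2 being the exception. Without BR7 its log2 fold change in BR7 to BR10 was 0.28 in place of 0.58, and that of Hk2 was 0.26 without BR10. Hkdc1, under the filter, was higher with Bch in 3 of 4 mice of BR7 to BR10 and in 2 of 4 of BR1 to BR4.

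The hexose phosphate steps held 7 tested members, 4 of them above 0 in BR7 to BR10 and 3 in BR1 to BR4, where 49.5% and 50.3% of all genes were. Gpi1, the isomerase after hexokinase, stood at 263 and 298, 359.6 and 370.3, 325 and 471, and 417 and 432 CPM in BR7 to BR10. In BR1 to BR4 it stood at 356 and 544, 245 and 256, 239 and 268, and 264 and 268 CPM. Like Hk2 it was higher with Bch in all 8 mice, a share not counted over all genes, and most in BR1 and BR9. The log2 fold change was 0.20 (SE 0.14) and 0.23 (SE 0.10) in the 2 sets, 0.085 without BR9 in the first and 0.081 without BR1 in the second.

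Pfkl stood at 93.5 and 126, 92.9 and 113, 74.5 and 95.3, and 84.7 and 87.4 CPM in BR7 to BR10, higher with Bch each time. In BR1 to BR4 the pairs were 123 and 103, 72.6 and 60.5, 75.1 and 67.0, and 56.4 and 62.3 CPM, lower in all but BR4. The interaction log2 fold change was 0.41 (SE 0.19, edgeR adjusted p = 1.00), and 0.17 in thinned counts. Pfkp ranged from 23.1 to 54.8 CPM over all sums and was higher with Bch in 4 of 4 mice of BR7 to BR10 and in 2 of 4 of BR1 to BR4.

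Among the other enzymes of these steps, Adpgk, an ADP-dependent glucokinase, stood at 8.96 and 6.28, 8.27 and 8.43, 6.59 and 7.16, and 6.05 and 3.86 CPM in BR7 to BR10. In BR1 to BR4 its pairs were 5.47 and 4.81, 10.5 and 8.70, 5.24 and 12.5, and 6.60 and 14.3 CPM. No set had a common direction. Aldoc, an aldolase, which splits the hexose, had pairs of 35.2 and 38.7, 33.1 and 24.8, 34.5 and 23.3, and 29.9 and 41.1 CPM in BR7 to BR10. Among BR1 to BR4 they were 35.6 and 49.9, 18.3 and 14.7, 15.7 and 15.0, and 13.2 and 18.3 CPM. The groups overlapped in both sets, and BR1 alone of its set reached the level of BR7 to BR10. The row named Pgm2, a phosphoglucomutase, had pairs of 48.0 and 68.0, 61.1 and 59.0, 52.2 and 68.0, and 86.2 and 47.1 CPM in BR7 to BR10, and of 83.5 and 86.0, 86.3 and 71.9, 68.1 and 63.0, and 63.0 and 54.9 CPM in BR1 to BR4. The row named Pgm1 ranged from 19.2 to 63.2 CPM, and neither had a common direction in a set. RefSeq lists each of these symbols as an older name of the other gene, so which enzyme each row holds is uncertain.

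Of the regulators, Pfkfb3 makes fructose 2,6-bisphosphate, an activator of phosphofructokinase. Its pairs were 5.12 and 12.6, 5.73 and 6.56, 9.13 and 8.05, and 3.63 and 8.14 CPM in BR7 to BR10. Among BR1 to BR4 they were 8.67 and 6.02, 5.23 and 3.78, 8.74 and 2.50, and 6.60 and 1.98 CPM, lower with Bch in every mouse. The log2 fold change was 0.57 (SE 0.39; 0.86 without BR9, 0.37 without BR10) in BR7 to BR10 and -0.99 (SE 0.46, edgeR adjusted p = 0.60) in BR1 to BR4. With 198 UMIs over all libraries, Pfkfb3 is thinly measured. Tigar, a fructose bisphosphatase that lowers glycolytic flux, stood at 7.04 and 6.28, 9.55 and 10.3, 11.7 and 4.03, and 12.1 and 11.6 CPM in BR7 to BR10. Among BR1 to BR4 it stood at 9.12 and 7.22, 9.16 and 6.05, 8.74 and 6.50, and 8.12 and 8.41 CPM. It was lower with Bch in 3 of 4 mice of each set.

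The triose steps held the most abundant enzymes of glycolysis proper. Gapdh, which oxidizes glyceraldehyde 3-phosphate, stood at 373 and 332, 431 and 537, 292 and 654, and 468.4 and 546 CPM in BR7 to BR10. Among BR1 to BR4 it stood at 524 and 893, 258 and 321, 168 and 299, and 334 and 323 CPM. It was higher with Bch in 3 of 4 mice of each set. The log2 fold change was 0.39 (SE 0.16, edgeR adjusted p = 1.00) in BR7 to BR10 and 0.45 (SE 0.11, edgeR adjusted p = 0.12) in BR1 to BR4. The threshold was passed in BR1 to BR4 with no low-count filter (edgeR adjusted p = 0.00099), in thinned counts (0.031) and without BR4 (0.048), over a range of 0.00099 to 0.99 across all alternatives. Without BR9 the log2 fold change in BR7 to BR10 was 0.13.

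Gapdh was unequally counted in the technical replicates. Over all sums TR1 held 265 Gapdh UMIs and TR2 14347, and TR2 was higher in all 16 sums. In untreated BR1, for example, TR1 held 22 and TR2 1127 UMIs. As shares of all UMIs the ratio of TR2 to TR1 was 49.3. Among the 31 members with 200 or more UMIs the next highest ratios were 1.60 for Pgk1 and 1.46 for Pgam1. Of 8861 genes with 200 or more UMIs, 72 were over 2 times higher in TR2, 37 of them ribosomal protein genes, and 29 over 2 times higher in TR1.

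The Gapdh fold change therefore rests on TR2. In TR1 alone the log2 fold change was 0.33 (SE 0.30) in BR7 to BR10 and 0.39 (SE 0.34) in BR1 to BR4. In TR2 alone it was 0.41 (SE 0.17) and 0.44 (SE 0.11). The direction was alike in both technical replicates, and the error was larger in TR1. Near the annotated 3′ end of Gapdh, 60.1% of stretches of 65 bases, the length of the cDNA read, also occurred in transcripts of 122 other genes. For Eno1 this share was 65.3%, with 5 other genes, and the ratio of TR2 to TR1 was 0.99. How reads with several matches were counted is not given in the sources used here, so the levels of Gapdh and Eno1 are uncertain. Pgk1 was higher in TR2 in 16 sums and Pgam1 in 12, with 4.13% and 0% of such stretches shared. Their unequal counts leave their levels uncertain too, and the cause was not tested.

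**Figure D4:**
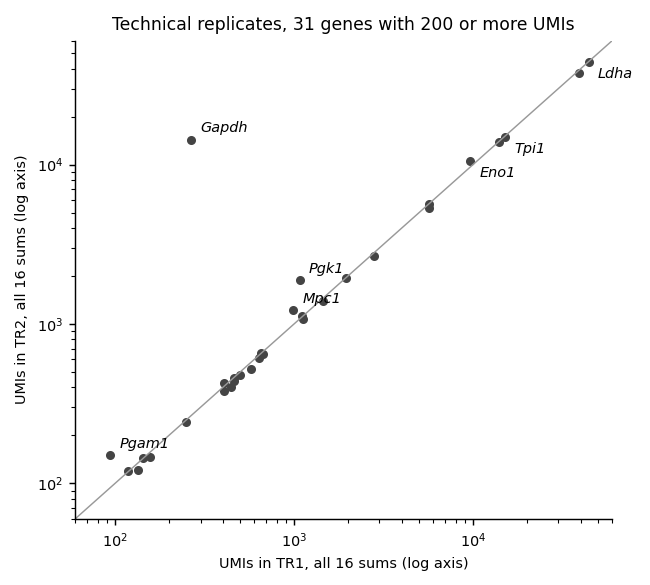
UMIs in TR1 (x) and TR2 (y), summed over the 16 sums on log axes, for the 31 members with 200 or more UMIs. The grey line marks equal counts. Gapdh, with 265 and 14347 UMIs, stands far above the line, and Pgk1 and Pgam1 slightly above it.

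Pgam1, the phosphoglycerate mutase, had pairs of 6.40 and 13.6, 2.55 and 9.84, 3.04 and 9.39, and 7.86 and 11.1 CPM in BR7 to BR10. No Bch value of this set overlapped an untreated one. Its fitted log2 fold change was 1.16 (SE 0.38, edgeR adjusted p = 1.00), from 245 UMIs over all libraries. In TR2 alone it was 0.80 (SE 0.38), and in TR1 alone Pgam1 was under the filter. Among BR1 to BR4 the pairs were 6.84 and 12.6, 5.23 and 5.67, 8.74 and 7.00, and 6.09 and 3.46 CPM, with a log2 fold change of 0.071 (SE 0.41), from -0.32 without BR1 to 0.34 without BR4.

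Eno3, known as the muscle enolase, had opposite directions in the 2 sets. Untreated and with Bch it stood at 5.12 and 11.5, 7.64 and 8.67, 7.10 and 10.3, and 10.6 and 22.7 CPM in BR7 to BR10. Among BR1 to BR4 it stood at 9.12 and 5.41, 11.1 and 4.16, 15.7 and 5.00, and 9.14 and 7.92 CPM. All 4 mice of the first set were higher and all 4 of the second lower, and in the second the groups did not overlap. Its fitted log2 fold change was 0.75 (SE 0.33) in BR7 to BR10 and -0.95 (SE 0.38, edgeR adjusted p = 0.52) in BR1 to BR4. The interaction log2 fold change of 1.70 (SE 0.49, edgeR adjusted p = 1.00) did not pass. Eno3 had 303 UMIs over all libraries.

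Eno1 had pairs of 487 and 638, 657 and 680.4, 646 and 784, and 755 and 717 CPM in BR7 to BR10. For BR1 to BR4 they were 776 and 1177, 465 and 359.7, 302 and 371, and 390.5 and 351 CPM. BR1 stood apart from the other 3 mice of its set, and the log2 fold changes were 0.16 (SE 0.14) and 0.093 (SE 0.11). The first was 0.092 without BR7 and 0.25 without BR10, and the second -0.099 without BR1 and 0.26 without BR2. Tpi1, Pgk1, the first ATP-yielding kinase of glycolysis, and Pkm had log2 fold changes of 0.15, 0.16 and 0.23 in BR7 to BR10. Without BR9 those of Tpi1 and Pgk1 were 0.015 and 0.10, and that of Pkm was 0.14 without BR7. The values in BR1 to BR4 were 0.15, 0.11 and -0.00018, and Pkm was lower with Bch in BR2, BR3 and BR4. Without BR1 they were 0.030, -0.071 and -0.11.

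Ldha was high in every sum. This gene (chromosome 7, 46841475 to 46855627, plus strand, GRCm38) stood untreated and with Bch at 2743 and 3834, 3421 and 3048, 2945 and 3439, and 3326 and 3339 CPM in BR7 to BR10. For BR1 to BR4 it stood at 2941 and 3919, 1929 and 1424, 1695 and 1504, and 1658 and 1495 CPM. Neither set had a common direction, and the log2 fold changes were 0.14 (SE 0.17) and -0.084 (SE 0.11). The first was 0.028 without BR7 and 0.24 without BR8, and the second -0.25 without BR1 and 0.036 without BR2. Ldhb, the subunit that favours lactate use, stood at 8.32 and 4.18, 6.36 and 5.15, 6.59 and 6.71, and 9.07 and 17.1 CPM in BR7 to BR10. For BR1 to BR4 it stood at 1.37 and 3.01, 9.16 and 8.32, 1.75 and 5.00, and 9.65 and 8.41 CPM, again with no common direction.

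For lactate export, Slc16a3 (chromosome 11, 120948480 to 120960868, plus strand, GRCm38), the transporter typical of glycolytic cells, had the smallest p of all members in BR7 to BR10. Its pairs there were 38.4 and 113, 48.4 and 53.4, 43.1 and 59.0, and 36.0 and 62.1 CPM, and no Bch value overlapped an untreated one. Its fitted log2 fold change was 0.72 (SE 0.19, edgeR adjusted p = 0.68), and 0.47 without BR7. The BR7 sum with Bch, the highest for Slc16a3 and Slc2a1, also had the highest summed level of the 10 goblet cell markers, 15206 CPM where the other sums of these 4 mice had 3811 to 9929 CPM. Their part in the result was not tested.

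Slc16a3 in BR1 to BR4 had pairs of 47.0 and 71.0, 22.2 and 9.45, 12.2 and 12.0, and 17.3 and 12.9 CPM. BR1 was over 3 times above the others with Bch, and the log2 fold change of -0.15 (SE 0.26) was -0.64 without BR1. Leaving out 1 mouse at a time gave values up to 0.18, so its sign was not stable. The interaction log2 fold change of 0.86 (SE 0.33, edgeR adjusted p = 1.00) did not pass, and was 1.39 without BR1 and 0.52 without BR2. Slc16a1, the more widespread transporter, stood at 25.0 and 20.9, 31.8 and 34.4, 24.3 and 32.2, and 19.4 and 32.1 CPM in BR7 to BR10. For BR1 to BR4 it stood at 24.2 and 33.7, 19.6 and 21.2, 8.74 and 15.5, and 20.8 and 31.2 CPM, higher with Bch each time. Its fitted log2 fold change was 0.29 (SE 0.22) and 0.45 (SE 0.23), with 0.61 and 0.88 in thinned counts, and the first was 0.14 without BR10. Bsg lay between 1822 and 3458 CPM in all sums, with log2 fold changes of 0.01 and -0.076, whose sign changed when 1 mouse was left out.

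**Figure D5:**
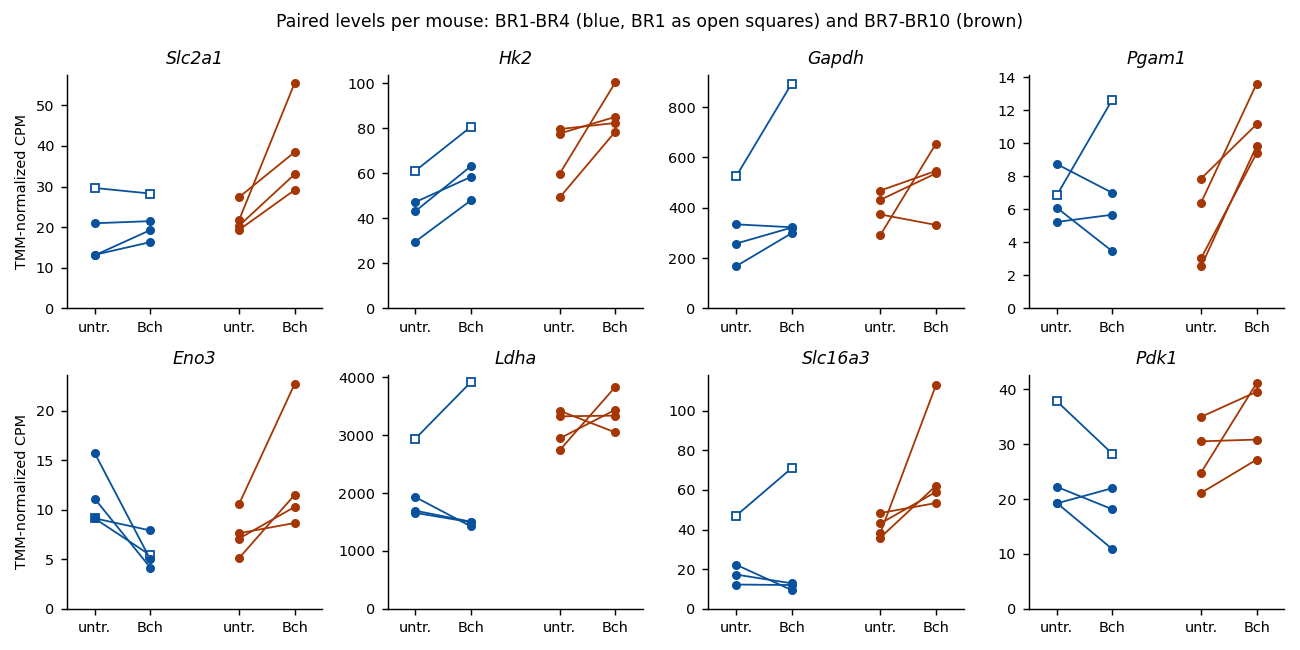
TMM-normalized CPM (linear axes from 0) of 8 members, untreated and with Bch, each line being 1 mouse, blue for BR1 to BR4 with BR1 as open squares and brown for BR7 to BR10. Slc2a1, Pgam1 and Slc16a3 are higher with Bch in all 4 brown lines, Eno3 is lower in all 4 blue lines, and BR1 lies above BR2 to BR4 for Gapdh, Ldha and Slc16a3.

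Of the 8 pyruvate entry genes tested, none had an unadjusted p under 0.05 in BR7 to BR10 and Pdk2 alone had one in BR1 to BR4. Mpc1 and Mpc2 form the mitochondrial pyruvate carrier. Mpc1 stood at 66.6 and 104, 61.7 and 67.5, 58.3 and 68.4, and 78.6 and 75.0 CPM in BR7 to BR10, and at 57.0 and 61.4, 56.9 and 71.9, 62.9 and 54.5, and 57.4 and 74.7 CPM in BR1 to BR4. Mpc2 stood at 416 and 364, 326 and 294, 392 and 294, and 342 and 486 CPM in BR7 to BR10, and at 284 and 335, 302 and 292, 381 and 321, and 317 and 314 CPM in BR1 to BR4. The log2 fold changes were 0.22 (SE 0.16) and 0.19 (SE 0.15) for Mpc1 and -0.057 (SE 0.14) and -0.0099 (SE 0.094) for Mpc2. In BR7 to BR10 that of Mpc1 was 0.099 without BR7, 0.33 without BR10, 0.052 in TR1 alone and 0.36 in TR2 alone, and in BR1 to BR4 it was 0.11 without BR4 and -0.0043 in thinned counts. That of Mpc2 changed sign in both sets when 1 mouse was left out.

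Of the pyruvate dehydrogenase subunits, Pdhb was lower with Bch in all 4 mice of BR7 to BR10, at 149 and 128, 169 and 151, 189 and 167, and 185 and 169 CPM. For BR1 to BR4 it stood at 177 and 202, 174 and 163, 178 and 174, and 141 and 154 CPM. Its fitted log2 fold change was -0.17 (SE 0.14, edgeR adjusted p = 1.00) in BR7 to BR10, where the groups overlapped. Dlat, the acetyltransferase subunit, had pairs of 42.3 and 38.7, 26.7 and 37.0, 33.0 and 40.7, and 42.0 and 42.9 CPM in BR7 to BR10, and of 50.2 and 41.5, 39.9 and 33.3, 48.9 and 49.5, and 41.6 and 36.6 CPM in BR1 to BR4. Pdha1 ranged from 84.7 to 149 CPM without a common direction.

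The kinases that inhibit this complex are given in turn, and no difference between them was tested. Pdk1, a hypoxia-responsive kinase, stood at 21.1 and 27.2, 35.0 and 39.6, 24.8 and 41.2, and 30.5 and 30.9 CPM in BR7 to BR10. For BR1 to BR4 it stood at 37.9 and 28.3, 22.2 and 18.2, 19.2 and 22.0, and 19.3 and 10.9 CPM. Its interaction log2 fold change was 0.68 (SE 0.31, edgeR adjusted p = 1.00), and 0.44 in thinned counts. Pdk2 stood at 23.1 and 24.1, 21.0 and 21.8, 28.4 and 30.0, and 28.7 and 23.1 CPM in BR7 to BR10, and at 17.8 and 30.1, 20.9 and 26.1, 19.2 and 20.5, and 16.2 and 26.7 CPM in BR1 to BR4, higher with Bch in each of the latter (log2 fold change 0.51, SE 0.23, edgeR adjusted p = 0.60, and 0.12 in thinned counts). Pdk3 had pairs of 25.0 and 30.3, 24.2 and 30.4, 30.4 and 37.6, and 35.1 and 35.6 CPM in BR7 to BR10. Across BR1 to BR4 they were 29.7 and 38.5, 19.0 and 28.4, 21.0 and 25.5, and 38.6 and 13.9 CPM, with BR4 against the others.

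Mouse BR1 stood apart from BR2 to BR4 in this pathway, in both treatments. With Bch, BR1 was the highest of the 4 mice for 26 of the 32 members, where it was the highest for 30.5% of all 10280 genes tested. Untreated it was the highest for 17 of 32, beside 23.4% of all genes. Its members lay a median log2 ratio of 0.72 above the mean of the other 3 mice with Bch and 0.40 untreated, while all genes had medians of -0.026 and -0.013. The 13 colonocyte markers summed to 1598 and 1660 CPM in BR1, untreated and with Bch, and to 831 to 1324 CPM in BR2 to BR4. The 10 cycling markers summed to 1264 and 1233 CPM in BR1 and 911 to 1092 CPM in the others. Sums of the 7 epithelial markers were also higher in BR1 (9515 and 10845 against 8354 to 9400 CPM). Those of the 10 enteroendocrine markers (305 and 316 against 325 to 580 CPM) and 10 tuft cell markers (7.30 and 4.21 against 7.56 to 15.7 CPM) were lower. Stem cell and goblet cell marker sums overlapped. The 11 mitochondrial transcripts with a row summed to 16477 and 18351 CPM in BR1 and to 19681 to 30655 CPM in BR2 to BR4, without overlap, while the 10 dissociation genes, at 1215 and 1101 CPM in BR1 and 969 to 1315 CPM in the others, overlapped. BR1 also had the most sorted cells, 13114 untreated and 3504 with Bch. The part of these in the result was not tested.

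The untreated sums of the 2 sets were compared without a block, as a description. Of 9159 genes, 89 were higher in BR7 to BR10 (0.972%) and 61 lower (0.666%) in edgeR's quasi-likelihood test. Ldha was the 1 member called, higher in BR7 to BR10 with 3109 ± 319 CPM (SD, n = 4) against 2056 ± 602 CPM (SD, n = 4). The log2 difference was 0.58 (SE 0.15, edgeR adjusted p = 0.047). The 2 groups overlapped through BR1. Cell type markers also differed between these untreated sums: the 10 stem cell markers summed to 822 to 871 CPM in BR7 to BR10 and 982 to 1140 CPM in BR1 to BR4, and the 10 enteroendocrine markers to 515 to 1047 CPM and 305 to 497 CPM, both without overlap. Their part in the result was not tested. The call was lost with TR1 alone (edgeR adjusted p = 0.051), with TR2 alone (0.057), in thinned counts (0.069), and without each of BR2, BR3, BR4, BR8, BR9 and BR10 (0.091 to 0.18), and it was kept without BR1 or BR7. Without BR1, Aldoc, Eno1, Slc16a3 and Tpi1 were called too, Slc16a3 with a log2 difference of 1.16. Over all genes 74 to 210 were called when 1 mouse was left out, and the number without BR1 is not given here.

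Pdk2 was the 1 member without overlap between the untreated sets, at 21.0 to 28.7 CPM in BR7 to BR10 and 16.2 to 20.9 CPM in BR1 to BR4. Among all genes tested, 4.60% were higher in BR7 to BR10 and 3.44% lower without overlap. Fitted values were above 0 for 24 of 32 members, beside 47.9% of all genes, and the median log2 difference was 0.18 beside -0.016, with 0.29 without BR1 and 0.12 without BR10.

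Other genes of the pathway were taken from 7 lists of 99 genes, of which 85 have a row. In BR7 to BR10, 62 passed the filter and 0 passed an adjusted p of 0.05, with 4 higher and 2 lower with Bch at an unadjusted p under 0.05, where 2.48% and 1.30% of all genes were. Across BR1 to BR4, 58 passed the filter and 0 the threshold, with 1 higher and 2 lower, where 4.46% and 3.26% of all genes were. Their median log2 fold change was 0.013 in BR7 to BR10 and -0.0028 in BR1 to BR4, beside 0.21 and 0.058 for the members. The smallest p values in BR7 to BR10 belonged to Egln3 and Slc25a13 among higher genes and to Pdhx and Arrdc4 among lower ones.

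Egln3, a prolyl hydroxylase that marks HIF proteins for decay and is itself a hypoxia-induced gene, had the smallest p of these genes in BR7 to BR10. Its pairs were 37.1 and 103, 52.8 and 60.2, 62.9 and 75.6, and 64.1 and 103 CPM in BR7 to BR10. Across BR1 to BR4 they were 59.8 and 90.8, 35.3 and 33.7, 33.2 and 27.0, and 27.4 and 30.7 CPM, with BR1 above the other 3 mice. Its fitted log2 fold change was 0.62 (SE 0.18, edgeR adjusted p = 0.99) and 0.18 (SE 0.18).

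Pdhx, the binding protein of pyruvate dehydrogenase, and Arrdc4, a relative of the glucose sensor Txnip, were lower with Bch in all 4 mice of BR7 to BR10, with log2 fold changes of -0.46 (SE 0.21) and -0.36 (SE 0.18). Slc25a13, a carrier of the NADH shuttle, had a log2 fold change of 0.81 (SE 0.39) there. Across BR1 to BR4 the genes by the same rule were Trp53, a tumour suppressor that regulates Tigar, at 0.24 (SE 0.10), Rpe of the pentose phosphate branch at 0.46 (SE 0.24), Egln2, another prolyl hydroxylase, at -0.25 (SE 0.12), and Ugp2, which makes the glucose donor for glycogen, at -0.25 (SE 0.12).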

How the data were processed

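The values deposited by the authors are raw UMI counts for each gene in each library, made with barcoded oligo-dT primers, 65-base cDNA reads and the Drop-seq pipeline. Per the study's methods mouse reads were aligned to GRCm38 with GENCODE M25, while the labels list GRCh38. Whether counting used strand, and how reads with several matches were treated, is not given in the sources used here. Blanks for 1520 genes in TR2 were read as 0. Technical replicates were summed per mouse and treatment, which gave a median of 1988591 UMIs.

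Tests used R 4.3.3 and edgeR 4.0.16, with filterByExpr, TMM, robust quasi-likelihood fits, the mouse as block and Benjamini-Hochberg adjustment over all genes at 0.05. DESeq2 1.42.0 was an alternative. Log2 ratios per mouse used a prior count of 2. Standard errors are the log2 fold change over the square root of F. The steps were tested on simulated data. Pairs are cultures of the same mouse, and their deviations from the group means correlated at -0.0203 to 0.244 across 10280 genes. Nothing says that TR1 and TR2 are separate cultures.

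Members and lists were chosen with earlier results of these data known. Genes with values for every mouse were the highest member of each family, Gapdh, Slc2a1, Ldha, Ldhb, Slc16a3, Eno3, Pdk1, Mpc1, Mpc2 and up to 5 members per direction and set with the smallest p, and for other pathway genes 2 per direction and set.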

Additional observations from a re-analysis of the deposited data

Results flagged for a closer look

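In groups of 4, a sum or mouse was singled out where its gap to the nearest of the others, divided by the whole range, was above Dixon's 95% critical value. Levels entered this rule as log2 of CPM plus 1, and are given below in CPM. Of 192 groups tested 17 met this, where chance gives about 1 in 20. Groups of different genes share the same sums, so they are not independent.

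Of these, 9 were the BR1 sum with Bch, the highest of BR1 to BR4. It stood at 544 CPM for Gpi1 (others 256 to 268), 1614 CPM for Tpi1 (565 to 591), 893 CPM for Gapdh (299 to 323) and 132 CPM for Pgk1 (56.0 to 63.2). It also stood at 1177 CPM for Eno1 (351 to 371), 1350.1 CPM for Pkm (585 to 619), 3919 CPM for Ldha (1424 to 1504), 71.0 CPM for Slc16a3 (9.45 to 12.9) and 3458 CPM for Bsg (1822 to 1924).

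Among single levels, untreated BR9 was low for Pgk1 at 78.1 CPM (others 102 to 108). BR7 with Bch was low for Slc16a1 at 20.9 CPM (32.1 to 34.4). Untreated BR3 was high for Mpc1 at 62.9 CPM (56.9 to 57.4), and untreated BR4 low for Pdhb at 141 CPM (174 to 178).

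Among log2 ratios of Bch to untreated, Tigar in BR9 was low at -1.34 (others -0.14 to 0.10) and Pdk2 in BR10 at -0.30 (0.05 to 0.075). Pdk3 was low in BR4 at -1.42 (0.27 to 0.56) and in BR10 at 0.020 (0.27 to 0.32).

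Eno3 was higher with Bch in 4 of 4 mice of BR7 to BR10 and lower in 4 of 4 of BR1 to BR4. The interaction log2 fold change was 1.70 (edgeR quasi-likelihood test, adjusted p = 1.00), so the difference did not pass.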

How the results depend on the processing

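With the replicate block (the mouse) left out, the genes called in BR1 to BR4 went from 2 to 0 and Ldha there had a log2 fold change of 0.015 in place of -0.084, while the block changed no call of a member. For the same comparison DESeq2 called 14 genes, no low-count filter 88, TR1 alone 9, thinned counts 22 and all 16 sums in one fit 0. Gapdh was the 1 member called there with no low-count filter and in thinned counts. In thinned counts the log2 fold change was -0.065 for Slc2a1, 0.036 for Slc16a3 and 0.020 for Pfkl in BR1 to BR4, and TR2 alone gave 0.0048 for Slc16a3, all opposite in sign to the values above. Near 0 in BR1 to BR4, the value of Pkm turned positive with no block (0.045), no low-count filter (0.025), TR1 alone (0.0064), TR2 alone (0.017) and library sizes without mitochondrial and ribosomal protein genes (0.0059), that of Mpc2 with no low-count filter (0.015) and TR2 alone (0.021), and that of Mpc1 was -0.0043 in thinned counts. For the interaction, 1 gene was called with no low-count filter. Between untreated sets 234 genes were called with no low-count filter and 90 in thinned counts, against 150, and 0 members in TR1 alone, TR2 alone and thinned counts. The cause was not tested, except that thinned counts hold fewer UMIs.

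Leaving out each mouse in turn gave 0 to 4 genes called in BR7 to BR10, 0 to 19 in BR1 to BR4 (19 without BR4), 0 for the interaction and 74 to 210 between untreated sets. Members called numbered 0 in BR7 to BR10 and for the interaction, 0 to 1 in BR1 to BR4 (Gapdh, without BR4), and 0 to 5 between untreated sets (5 without BR1). The log2 fold change changed sign for Mpc2 (-0.24 to 0.058), Aldoc (-0.29 to 0.069) and Bsg (-0.12 to 0.082) in BR7 to BR10. The same held in BR1 to BR4 for Slc16a3 (-0.64 to 0.18), Ldha (-0.25 to 0.036), Eno1 (-0.099 to 0.26), Pgk1 (-0.071 to 0.21), Pkm (-0.11 to 0.076), Pgam1 (-0.32 to 0.34), Bsg (-0.19 to 0.00999) and Mpc2 (-0.093 to 0.062). Members with few UMIs, such as Pgam1 and Pfkfb3, are thinly measured.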
